A study of Mus musculus with 22 samples.

Results

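Neural and mesodermal gastruloids of day 3.5 were compared cell type by cell type. Gastruloids are aggregates of mouse embryonic stem cells that form cell types of the gastrulating embryo in culture. The comparison holds 16 of the 136 gastruloids of the series and 4679 of its 77683 cells. Each of these cells was assigned in the authors' cell table to 1 gastruloid of day 3.5 whose class was neural (10 gastruloids) or mesodermal (6 gastruloids). The members were thus chosen by a readout of the same cells, a class that follows the share of neural cell names, and that share is given as a description only. UMIs (counted RNA molecules) were summed per gastruloid within each of the authors' cell names, and a gastruloid entered a comparison with 20 or more cells of the name. Caudal Epiblast and Primitive Streak were taken first, because both classes held enough of these cells.

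Both groups had the same history apart from their class, which was read off after sequencing. The cells were wild-type E14Tg2A, a single mouse embryonic stem cell line, seeded at 300 per well in N2B27, a serum-free medium. They aggregated for 48 h before 3 µM CHIR99021 was added, an inhibitor of the kinase GSK3 that switches on Wnt signalling. Gastruloids were taken apart one by one, their cells were tagged with lipid-anchored DNA barcodes (MULTI-seq) and pooled with day 4 gastruloids, and the pool was split over 4 droplet lanes.

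In the embryo the primitive streak is where epiblast cells leave the epithelium and become mesoderm or endoderm. The caudal epiblast beside and behind it holds bipotent progenitors that give rise to spinal cord and presomitic mesoderm. The T-box factors T (Brachyury) and Tbx6, with Wnt and FGF ligands, push such progenitors to mesoderm, whereas Sox2 and Nkx1-2 mark the progenitor and neural side.

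The lanes held 248418669 to 307883815 UMIs, and each gave 1102 to 1292 of the cells used. Between 76.4% and 84.5% of the final cells of a lane carried 1 gastruloid's barcode and 4.63% to 7.68% were called doublets by barcode. Doublets of cells of the same gastruloid cannot be seen in this way. Of 4678 distinct cell barcodes, 1 occurred in more than 1 lane. Mesodermal gastruloids gave 201 to 531 cells and neural ones 85 to 365 (means 374.3 ± 131 and 243.3 ± 98.4, SD, n = 6 and 10, two-sided exact permutation test, p = 0.0392, adjusted over 3 measures p = 0.118). Median UMIs per cell were 34654 ± 1791 and 37016 ± 2866 (adjusted p = 0.123, same exact permutation test). Mitochondrial UMIs were 2.15% ± 0.103 and 2.08% ± 0.0731 (adjusted p = 0.123, same exact permutation test).

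The rule behind the class is not given in the sources, and the class follows the makeup of each gastruloid, so makeup is described here without a test. Cells under neural names (neurectoderm, spinal cord and neurons) made up 0.498% to 21.5% of a mesodermal gastruloid, with a median of 3.58%. They made up 23.5% to 83.5% of a neural one, with a median of 55.7%. The 2 classes come close at their border, where the mesodermal gastruloid with the highest neural share stood at 21.5% and the neural gastruloid with the lowest at 23.5%. Gastruloids are numbered here within their class from the lowest to the highest neural share.

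Early Posterior PSM (presomitic mesoderm, the precursor of the somites) was the most frequent name in mesodermal gastruloids, with 47.4% ± 12.5 (SD, n = 6) against 8.25% ± 5.49 (n = 10) in neural ones. Caudal Neurectoderm was the counterpart, with 3.12% ± 4.01 and 26.3% ± 4.95. Late Nascent Mesoderm had 36 cells in mesodermal gastruloids and 0 of 2433 cells in neural ones, which allows a share of up to 0.123% (counting error only). The 36 came from 3 of the 6 mesodermal gastruloids, with a median share of 0.188% and 5.65% in mesodermal 3. Mature Endoderm had 44 and 2 cells, and its share was 0.498% to 3.77% over the 6 mesodermal gastruloids. NMPs (neuromesodermal progenitors) had 39 cells in 4 of 6 mesodermal and 4 cells in 1 of 10 neural gastruloids, with 5.73% in mesodermal 2. The 2 progenitor names compared here were shared by both classes. Caudal Epiblast made up 16.4% ± 8.59 of a mesodermal and 16.4% ± 8.40 of a neural gastruloid, and Primitive Streak 10.9% ± 5.53 and 14.6% ± 5.79.

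**Figure D1:**
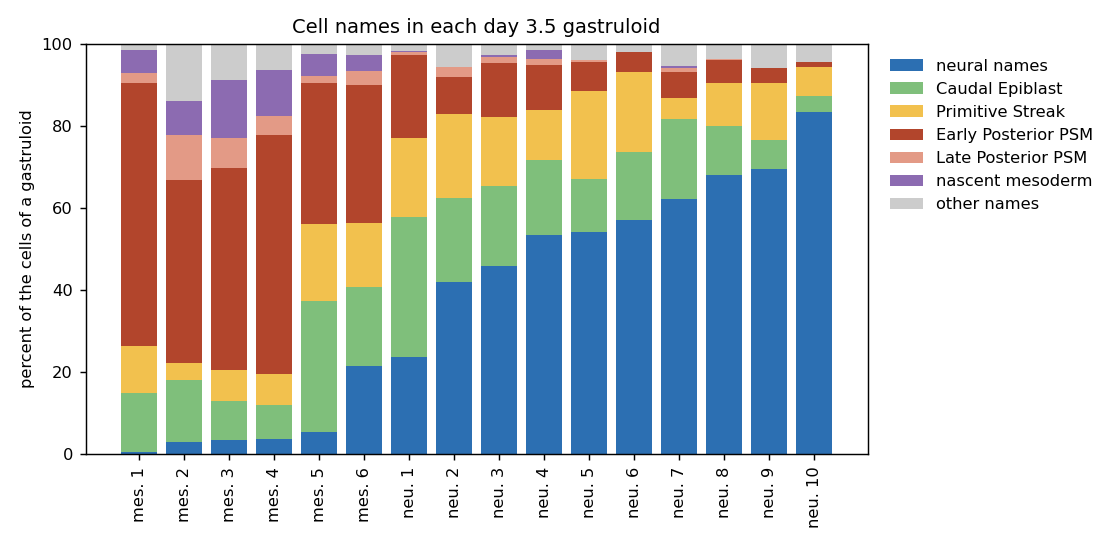
Percent of the cells of each gastruloid under each cell name (stacked bars, y axis in percent) for 6 mesodermal (mes.) and 10 neural (neu.) gastruloids of day 3.5, ordered by neural share. Mesodermal 6 (21.5%) and neural 1 (23.5%) lie next to each other, while Early Posterior PSM fills 64.2% of mesodermal 1.

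The names were set beside their markers. CPM are UMIs of a gene per 1000000 UMIs of the sum, with the size of each sum scaled as given under processing. In cells named Caudal Epiblast, 9 of 10 markers stood above 5 CPM, led by Fst at 1111, T at 465.6 and Cdx2 at 385, with Cdx4 at 4.97. In cells named Primitive Streak all 10 markers did, from T at 713 to Eomes, a mesendoderm factor, at 5.30. This level did not separate the names, since 9 of 10 Caudal Epiblast markers also passed it in Primitive Streak. Of those 10, 7 had the higher mean in Caudal Epiblast, such as Epha5 (73.7 against 13.6 CPM), while T, Fgf8 and Fst (1111 against 1494) had the lower. Of the 10 Primitive Streak markers, 7 had the higher mean in Primitive Streak, such as Nodal (24.4 against 1.29) and Fgf5 (26.4 against 1.85), while Sp5 (141.1 against 201.4), Evx1 (28.9 against 43.5) and Wnt8a (48.8 against 52.5) had the lower. In the authors' mapping to an embryo reference, 87.6% of mesodermal and 89.6% of neural Caudal Epiblast cells fell on caudal epiblast, and 34.3% and 35.8% of Primitive Streak cells on primitive streak. The mean mapped embryonic day was 7.87 ± 0.0694 (SD, n = 6) and 7.85 ± 0.0937 (n = 7) for Caudal Epiblast and 7.29 in both classes for Primitive Streak (two-sided exact permutation test, adjusted p = 0.949 for both names). A difference in mapped age between the classes was not detected. Cells without a single mapped stage were left out, and they were more frequent in neural gastruloids (9.79% against 3.31% in Caudal Epiblast, 17.3% against 10.7% in Primitive Streak).

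In Caudal Epiblast of neural gastruloids, T, Fgf8, Tbx6, Dll1, Mixl1 and Rspo3 were lower, and Nkx1-2, Gbx2, Zic5, Epha5 and Ptn were higher. Of the streak and mesoderm factors tested 4 of 6 were lower, and of the neural factors tested 2 of 9 were higher. The sums came from 363 cells of 6 mesodermal and 378 cells of 7 neural gastruloids. The 3 neural gastruloids left out, with 36 such cells in all, were neural 2, 9 and 10. Neural 9 and 10 had the highest neural shares (69.4% and 83.5%). Of 9565 genes tested, 230 (2.4%) passed at an adjusted p under 0.05, 71 of them higher (0.742%) and 159 lower (1.66%) in neural gastruloids, and 41 differed by more than 2-fold. The CPM ranges of the classes did not overlap for 60 of the 230, and for 1.05% of all genes tested. Because the comparison is made inside a cell name, it is conditional on how cells were named. Without mesodermal 2, 19 of the 50 named genes that passed lost the call (adjusted p of 0.0550 to 0.184), Wnt5b, Fgf4 (0.0823), Crabp2, Gbx2 (0.0615), Fn1, Ldha (0.0755), Pim2 and Cdh13 among them. The count was 80 without mesodermal 2, 148 without mesodermal 3 and 152 without neural 6, and 79 and 43 without lanes A and C, which also removed gastruloids under 20 cells.

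T, the T-box factor that defines the streak and its mesoderm, had 484 to 693 CPM in mesodermal gastruloids (median 524) and 261 to 436 in neural ones (median 416). The ranges did not overlap, and T differed by a log2 fold change of -0.50 ± 0.09 (SE, adjusted p = 0.00433). Fgf8, the FGF that streak cells need to move away, had 383.6 to 567.5 CPM (median 439) against 185 to 373 (median 319). Its ranges did not overlap either (log2 fold change -0.65 ± 0.12, adjusted p = 0.00338). Both genes kept the call under each of the 26 other settings tried.

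Tbx6, which directs progenitors to presomitic mesoderm and away from neural fate, had 15.0 to 43.4 CPM (median 18.1) against 2.15 to 16.5 (median 12.2). Mesodermal 2 and 3 stood above the other 4 mesodermal gastruloids, and 5 of 7 neural gastruloids lay below every mesodermal one. Its log2 fold change was -1.39 ± 0.30 (adjusted p = 0.0115), and -1.25 with an adjusted p of 0.0570 without mesodermal 2. Dll1, the Notch ligand of presomitic mesoderm, had 42.5 to 123 CPM (median 72.3) against 8.62 to 69.1 (median 28.7). Neural 3 was the single neural gastruloid inside the mesodermal range (log2 fold change -1.53 ± 0.29, adjusted p = 0.00497). Mixl1, a streak homeobox gene, had 13.9 to 35.3 CPM against 5.38 to 16.5 (log2 fold change -1.15 ± 0.22, adjusted p = 0.00503).

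Of the 16 streak and mesoderm transcription factors listed, 6 passed the filter on low counts. T, Mixl1, Mesp1 and Tbx6 were lower in neural gastruloids, none was higher, and the median log2 fold change of the 6 was -0.83 beside 0.00 for all genes tested. Mesp1, a factor of nascent mesoderm, was near the threshold (-1.19 ± 0.33, adjusted p = 0.0494) and lost the call without any 1 of 9 of the gastruloids.

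Signals that maintain the tail end differed in part. Among 9 Wnt ligands, 6 were tested and Wnt5b (-0.60 ± 0.13, adjusted p = 0.0104) and Wnt3a (-0.54 ± 0.14, adjusted p = 0.0448) were lower in neural gastruloids. Wnt3a, the ligand that keeps caudal progenitors going, had 37.1 to 57.9 CPM against 18.1 to 37.4, and lost the call without any 1 of 8 of the gastruloids. Of 19 Wnt targets and feedback genes, 13 were tested. Rspo3, a secreted amplifier of Wnt signalling that is abundant in presomitic mesoderm, was lower (502 to 920 against 261 to 554 CPM, -0.76 ± 0.16, adjusted p = 0.00880). Notum, a secreted Wnt inhibitor, was higher (10.8 to 23.6 against 20.2 to 33.0 CPM, 0.64 ± 0.15, adjusted p = 0.0210), with the call lost without any 1 of 4 of the gastruloids, and the median of the 13 was 0.16.

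Fgf4 and Fgf8 were the 2 of 15 FGF pathway genes tested that passed, both lower. Fgf4, another streak FGF, was spread widely over mesodermal gastruloids, from 10.97 to 72.9 CPM, against 0.862 to 20.2 in neural ones (-1.90 ± 0.45, adjusted p = 0.0188), and it lost the call without mesodermal 2 or mesodermal 3. The FGF feedback targets of the list did not pass. In the Nodal pathway 3 of 12 genes were tested, and Lefty1, a Nodal antagonist, was lower (3.87 to 17.3 against 0 to 6.60 CPM, -1.94 ± 0.41, adjusted p = 0.00917). In the BMP pathway Id1, a BMP target, was lower (-0.47 ± 0.10, adjusted p = 0.00880), as 1 of 8 tested. In the retinoic acid pathway the carrier protein Crabp2 was lower (-0.98 ± 0.21, adjusted p = 0.0117).

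Hox genes set the position of a cell along the body axis. Of 39 Hox genes 24 were tested, and Hoxd9, Hoxd8 and Hoxd4 passed, all lower in neural gastruloids. Hoxd9 had 14.4 to 43.9 CPM (median 24.1) against 1.29 to 16.8 (median 8.01), with 6 of 7 neural gastruloids below every mesodermal one (-1.68 ± 0.28, adjusted p = 0.00179). Hoxd4 had 28.8 to 51.8 against 15.0 to 27.2 CPM with no overlap (-0.71 ± 0.16, adjusted p = 0.0147), and an adjusted p of 0.0766 without mesodermal 2. Hoxd8 was low in both classes and lost its call (adjusted p = 0.0470) without any 1 of 8 of the gastruloids. The median of the 24 was -0.25 and 21 of them had a negative log2 fold change.

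On the neural side, Nkx1-2, a homeobox gene of caudal progenitors, had 140 to 210 CPM (median 187) in mesodermal and 198 to 248 (median 238) in neural gastruloids. It was higher in neural gastruloids (log2 fold change 0.33 ± 0.08, adjusted p = 0.0183), with an adjusted p of 0.0767 without mesodermal 2. Sox2, the neural and progenitor factor, had 27.6 to 43.9 against 36.8 to 51.2 CPM and did not pass (0.31 ± 0.10, adjusted p = 0.108). Sox3 (-0.04 ± 0.12) and Cdx2 (0.12 ± 0.04, adjusted p = 0.188) did not pass either. Of 22 neural transcription factors 9 were tested. Zic5 (0.71 ± 0.14, adjusted p = 0.00601) and Gbx2, which marks the caudal neural plate (0.69 ± 0.15, adjusted p = 0.0143), were called higher and none was called lower. The median of the 9 was 0.31, and 2 of them had negative values, Sox3 and Irx3. Gbx2 lost the call without mesodermal 2 and, with an adjusted p of 0.0565, with embryo-mapped cells. It was not confined to neural cells here. With each cell thinned to 10000 UMIs, Gbx2 was seen in 46.6% of Early Posterior PSM and 63.2% of Caudal Neurectoderm cells of neural gastruloids.

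Ptn, a secreted heparin-binding growth factor of the neural tube, separated the classes fully. It had 87.3 to 246 CPM (median 219) in mesodermal and 275 to 453 (median 322) in neural gastruloids (0.90 ± 0.18, adjusted p = 0.00560). Mesodermal 2 and 3, the gastruloids with the highest Tbx6, were the lowest for Ptn with 96.5 and 87.3 CPM. Epha5, a receptor of cell repulsion and a caudal epiblast marker, had 13.9 to 67.8 against 61.3 to 139 CPM (1.06 ± 0.20, adjusted p = 0.00497). Psd3, an exchange factor for a small GTPase of membrane traffic, had 15.0 to 23.9 against 29.6 to 43.1 CPM with no overlap (0.79 ± 0.12, adjusted p = 0.00118).

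The remaining genes of the 10 most higher in neural gastruloids spanned log2 fold changes of 0.71 to 1.37. They were Pim2 (a survival kinase, 1.37), Nrp2 (a semaphorin and VEGF receptor, 1.05), the imprinted gene Mest (1.04), Rtl8b (0.81) and Trp53inp1 (a p53 target, 0.71). The 10 most lower were led by Fabp7, a fatty acid binding protein, with 28.9 to 161 CPM against 6.62 to 32.4 (-1.98 ± 0.33, adjusted p = 0.00179). Its highest values were 161 CPM in mesodermal 3 and 91.2 in mesodermal 2, and 6 of 7 neural gastruloids lay below every mesodermal one. Beside the genes already named, the 10 included S100a10 (-1.37), Sprr2a3 (-1.43), Arl4d (-1.41), Dennd2c (-1.27) and Cited1 (-1.23).

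**Figure D2:**
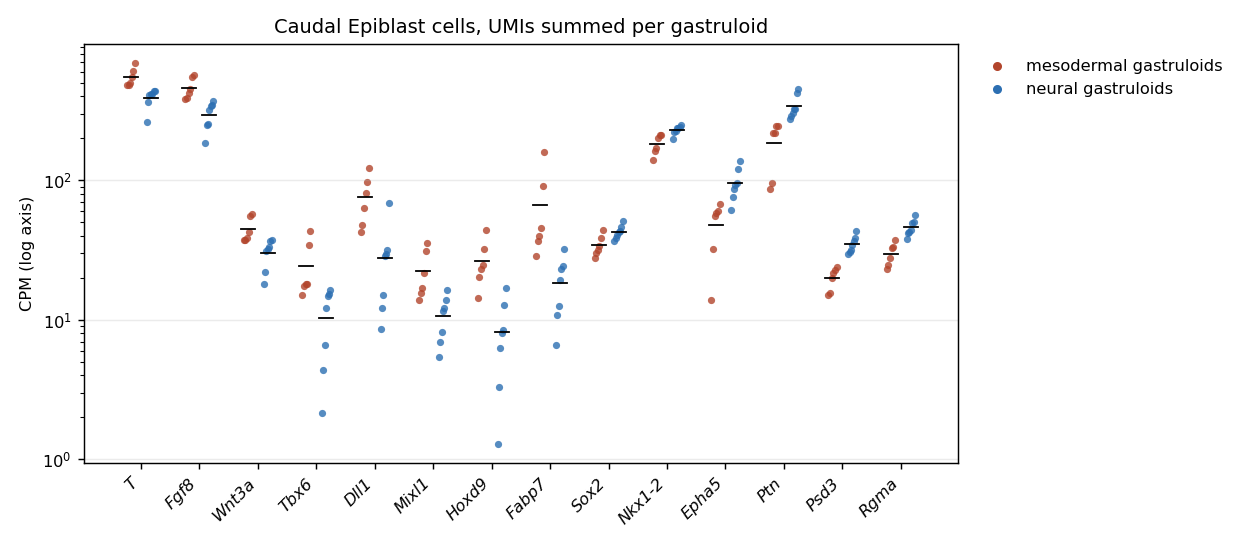
CPM (log axis) in Caudal Epiblast cells summed per gastruloid, 1 point per gastruloid (6 mesodermal, 7 neural), with black lines at the class means. T, Fgf8, Ptn, Psd3 and Rgma separate the classes fully, whereas Sox2 overlaps and did not pass.

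A filament gene, a matrix gene, glycolytic enzymes and p53 targets were also among those called in Caudal Epiblast. Vim, an intermediate filament protein of migrating mesenchyme, had 311 to 580 against 199 to 291 CPM (-0.65 ± 0.11, adjusted p = 0.00209), and Fn1, the fibronectin gene, was lower too (-0.58 ± 0.12, adjusted p = 0.0111). Both belong to the 11 of 16 cadherin, junction and EMT genes tested, 10 of which had negative values (median -0.23). The glycolytic enzymes Aldoa (-0.49 ± 0.08, adjusted p = 0.00129), Pgk1 (-0.39 ± 0.06, adjusted p = 0.00153), Ldha and Eno1 were lower, as 4 of 21 glycolysis and hypoxia genes tested (median -0.16), and Ldha lost the call without any 1 of 3 of the gastruloids. Aldoa and Pgk1 had ranges that did not overlap. All 10 p53 targets tested had positive values (median 0.34), and Trp53inp1 and Zmat3 (0.48 ± 0.12, adjusted p = 0.0276) passed. Zmat3 lost the call without any 1 of 7 of the gastruloids, with an adjusted p of 0.114 without mesodermal 2.

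Of the other lists, the matrix genes held 1 higher (Col18a1, 0.55, lost without any 1 of 7 of the gastruloids) and 1 lower (Fn1) of 13 tested. Dnmt3b, the DNA methyltransferase of the epiblast, was higher (0.43 ± 0.09, adjusted p = 0.00877), as 1 of 7 pluripotency genes tested. Cdkn1c, an imprinted cell cycle inhibitor, was lower (-0.55 ± 0.11, adjusted p = 0.00558) and was the 1 of 27 cell cycle genes that passed. Mest and Cdkn1c were the 2 of 16 imprinted genes to pass, and Nkx1-2, Epha5 (both higher) and T (lower) the 3 of 13 caudal identity genes (median 0.04). In edgeR's test 0 of 24 sterol and fatty acid synthesis genes, 0 of 18 ribosome biogenesis and Myc genes and 0 of 12 immediate early and stress genes passed. At an unadjusted p under 0.05 these lists held 3, 9 and 0 genes, beside 1409 of all 9565 genes tested, and the 9, Myc among them, had positive values. Epha5, with a positive value, was the 1 of 17 Eph receptors and ephrins to pass, while 13 of the 17 had negative values (median -0.24). Dll1 was the 1 of 13 Notch pathway genes to pass, and 10 of the 13 had negative values (median -0.30). In edgeR's test 7 of the 17 had an unadjusted p under 0.05, 3 of them with positive values. For the Notch list it was 8 of the 13, 1 of them with a positive value.

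The genes called in Caudal Epiblast lined up with the difference between the mesodermal and the neural cell types around it. This was read in other cells, 208 Early Posterior PSM and 649 Caudal Neurectoderm cells of the neural gastruloids alone, so cells of mesodermal gastruloids did not enter. The shares of both types differ between the classes, so the line-up is not independent of the makeup that the class follows. Of the 159 genes lower in neural gastruloids, 78 (49.1%) were at least 2-fold higher in Early Posterior PSM than in Caudal Neurectoderm and 0 were 2-fold higher in Caudal Neurectoderm. Of the 71 genes higher in neural gastruloids, 0 were 2-fold higher in Early Posterior PSM and 35 (49.3%) in Caudal Neurectoderm. Over all 9565 genes tested these shares were 3.76% and 4.39%. The median log2 ratio of Early Posterior PSM over Caudal Neurectoderm was 0.98 for the 159, -0.87 for the 71 and -0.12 for all genes (1 CPM added to each level). Of the genes called in Primitive Streak, described further on, 6 of 20 lower ones (30%) were 2-fold higher in Early Posterior PSM and 8 of 15 higher ones (53.3%) in Caudal Neurectoderm, with 0 on the opposite sides. Over all 9100 genes tested there the shares were 4.45% and 3.49%.

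**Figure D3:**
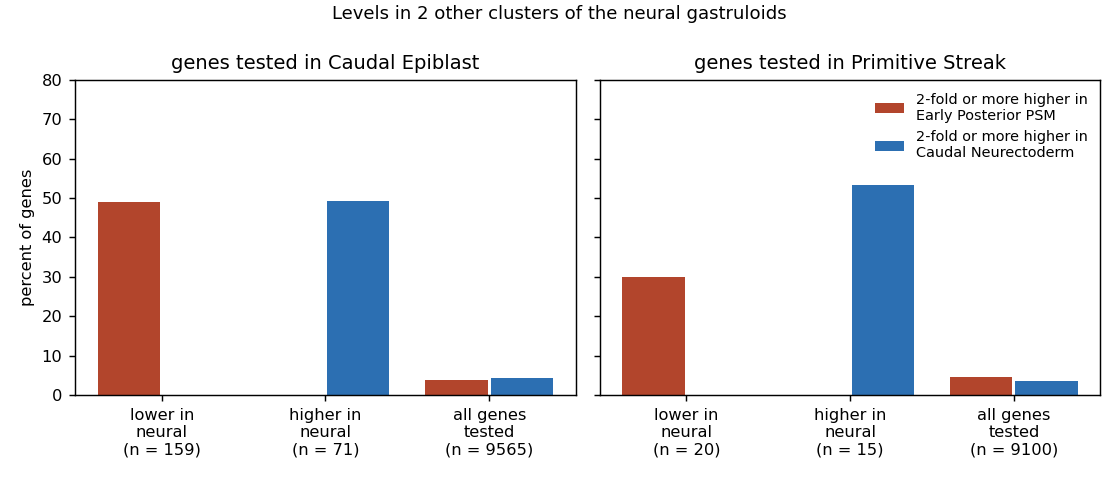
Percent of genes at least 2-fold higher in Early Posterior PSM (red) or in Caudal Neurectoderm (blue) of the neural gastruloids, for genes called lower, called higher and all tested in Caudal Epiblast (left) and Primitive Streak (right). The called genes that pass the 2-fold cut fall on 1 side per direction, 49.1% and 49.3% in Caudal Epiblast, against 3.76% and 4.39% of all genes tested there. The other 81 lower and 36 higher genes of Caudal Epiblast pass it on neither side.

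Some markers of mesodermal neighbours were lower in the same cells. Of 6 Early Posterior PSM markers, 3 (Tbx6, Dll1, Rspo3) were lower in Caudal Epiblast of neural gastruloids, and their summed level was 814 to 1426 CPM in mesodermal and 418 to 873 in neural gastruloids. Of 6 Early Nascent Mesoderm markers, 3 (Mesp1, Mixl1, Tbx6) were lower, with sums of 47.8 to 104 and 17.2 to 49.5 CPM. Msgn1, a defining presomitic gene, was near 0 with a mean of 1.21 CPM. Of 6 Caudal Neurectoderm markers 1 was higher, Nkx1-2, which is also a Caudal Epiblast marker, with sums of 270 to 362 and 355 to 448 CPM. Of 3 Early Neurectoderm markers and 1 spinal cord marker tested, 0 passed in edgeR's test. At an unadjusted p under 0.05 were Sox2, with a positive value, and the spinal cord marker Irx3, with a negative one (-0.60 ± 0.25, adjusted p = 0.251). Irx3 is also 1 of the 6 Caudal Neurectoderm markers, of which 5 had an unadjusted p under 0.05, 4 of them with positive values. The part of presomitic cells under the name Caudal Epiblast in these differences was not tested. With cells mapped to the embryo's caudal epiblast alone, 154 genes passed, 137 of them among the 230. T (-0.51), Fgf8 (-0.67), Dll1 (-1.34) and Ptn (0.93) stayed called there, and Tbx6 did not (-1.18, adjusted p = 0.0503).

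A sum cannot tell fewer expressing cells from less RNA per cell, so cells were also counted after thinning each to 10000 UMIs, which left out 1 cell per class. Tbx6 was seen in 18.2% of 362 mesodermal Caudal Epiblast cells (exact Clopper-Pearson 95% interval 14.4% to 22.6%) and 10.2% of 413 neural ones (7.43% to 13.5%). It was seen in 0.927% of 647 Caudal Neurectoderm cells of neural gastruloids, a type that should lack it. Both Caudal Epiblast shares lie above that value, which is not an independent background, since the cells were named in the same data. Per gastruloid the Tbx6 shares overlapped widely, from 13.8% to 25.7% (median 16.9%) in 6 mesodermal and from 3.57% to 26.7% (median 12.1%) in 7 neural gastruloids, and the highest was a neural one. Without thinning the pooled shares were 43.1%, 23.0% and 4.33%, at median depths of 36594, 40611 and 38266 UMIs.

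Dll1 was seen in 34.3% (29.4% to 39.4%) and 18.6% (15.0% to 22.7%) of the thinned cells, against 5.10% in Caudal Neurectoderm (58.0%, 37.8% and 21.3% unthinned). Its shares per gastruloid also overlapped, from 24.1% to 51.0% in mesodermal and from 9.30% to 29.7% in neural gastruloids. T was near saturation in both classes, at 96.4% and 91.5% of thinned cells. The cells with a T UMI held 5.60 and 4.47 of them on average. T and Sox2 together were seen in 26.0% (21.5% to 30.8%) of mesodermal and 35.1% (30.5% to 39.9%) of neural Caudal Epiblast cells. With T near saturation, these shares are close to those of Sox2 alone, 27.3% and 36.6%. Per gastruloid the Sox2 shares overlapped, from 17.2% to 45.5% in mesodermal and from 28.3% to 50% in neural gastruloids. The intervals given for pooled cells cover counting error over cells only and do not compare the classes.

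In Primitive Streak cells, Sox2, Ptn, Gbx2, Hes3, Rgma and Nkx1-2 were higher in neural gastruloids, and the epithelial genes Krt8, Cldn6, Cdh1 and Epcam, with Trh, Fabp7 and Tagln2, were lower. The sums came from 233 cells of 6 mesodermal and 283 cells of 7 neural gastruloids. The 3 neural gastruloids left out, with 47 cells in all, were neural 2, 7 and 9, so the neural set differs from that of Caudal Epiblast. Of 9100 genes tested 35 (0.385%) passed, 15 higher (0.165%) and 20 lower (0.22%) in neural gastruloids, and 777 had an unadjusted p under 0.05. The ranges did not overlap for 21 of the 35, and for 0.484% of all genes tested. The count fell to 13 without neural 6, 14 without mesodermal 2 and 15 without neural 5. Between 22 and 24 genes passed without any 1 of mesodermal 1, 3 and 4 or neural 3 and 10, and 4 to 11 without any 1 lane. With cells mapped to the embryo's primitive streak alone, over 2 gastruloids per class, 1 higher and 1 lower gene passed. The lower one was Trh (-2.11, adjusted p = 0.0429). Hes3 had 0.28 and Cdh1 -0.22 there, both with an adjusted p of 0.999, and Cldn6 had -1.30 (adjusted p = 0.795). The counts of Caudal Epiblast and Primitive Streak rest on different numbers of cells and do not rank the names: with the percent of neural cells in place of the class, 60 and 128 genes passed.

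Sox2 had 9.57 to 18.2 CPM (median 16.4) in mesodermal and 21.2 to 31.7 (median 24.9) in neural gastruloids. The ranges did not overlap (log2 fold change 0.88 ± 0.17, adjusted p = 0.00989). Ptn had 28.6 to 77.1 CPM (median 44.9) against 89.8 to 169 (median 134), again with no overlap (1.20 ± 0.16, adjusted p = 0.000239). Rgma, a membrane-anchored guidance molecule and BMP co-receptor, had 16.6 to 28.2 against 29.1 to 53.4 CPM, with no overlap (0.79 ± 0.15, adjusted p = 0.00943). These 3 genes kept the call without any 1 gastruloid.

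Hes3, a transcriptional repressor found in neural progenitors, had 4.09 to 14.8 CPM against 11.8 to 47.1. Neural 1, the neural gastruloid nearest to the mesodermal class, was the single neural one inside the mesodermal range (1.13 ± 0.24, adjusted p = 0.0292). Gbx2 (0.81 ± 0.16, adjusted p = 0.0172) and Nkx1-2 (0.44 ± 0.10, adjusted p = 0.0445) were higher as well. Hes3, Gbx2 and Nkx1-2 lost the call without neural 6 (adjusted p of 0.0909, 0.0712 and 0.174) and without mesodermal 2 (0.0613, 0.0515 and 0.0805). In all, Hes3 lost it without any 1 of 7 of the gastruloids, Nkx1-2 without any 1 of 8 and Gbx2 without any 1 of 2. Of 9 neural transcription factors tested 3 passed, all higher (median 0.39), and 6 Caudal Neurectoderm markers summed to 194 to 226 CPM in mesodermal and 244 to 342 in neural gastruloids.

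Trh, which encodes the precursor of thyrotropin-releasing hormone and is high in definitive endoderm, had the smallest adjusted p. It had 15.0 to 98.7 CPM (median 67.4) against 7.08 to 14.3 (median 8.78), with no overlap (-2.47 ± 0.29, adjusted p = 3.43e-05). Mesodermal 4 and 5 were the 2 mesodermal gastruloids close to the neural range, with 15.0 and 23.7 CPM. Cldn6, a tight junction protein, had 16.1 to 44.3 against 4.01 to 11.7 CPM (-1.48 ± 0.23, adjusted p = 0.000914). Krt8, a keratin of simple epithelia, had 24.9 to 70.1 against 12.9 to 20.5 CPM (-1.22 ± 0.19, adjusted p = 0.000914). The ranges of Cldn6 and of Krt8 did not overlap.

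Fabp7 had 27.2 to 62.9 against 15.6 to 21.2 CPM in these cells (-1.14 ± 0.18, adjusted p = 0.000914), and Tagln2, an actin-binding protein, 60.8 to 113 against 36.5 to 51.2 (-0.81 ± 0.11, adjusted p = 0.000246). Both separated the classes fully. The rest of the 10 most lower were Cd36 (-0.95), Nhsl1 (-0.78), the malic enzyme Me1 (-0.66), S100a10 (-0.57) and Atl2 (-0.56). The rest of the 10 most higher were Tex15 (0.67), Rtl8b (0.60), Itga6, a laminin receptor subunit (0.58), and Atad5 (0.48). Of these genes all but Atl2 and Rtl8b lost the call without any 1 of 8 to 10 of the gastruloids.

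Cdh1 (E-cadherin, 102 to 154 against 75.3 to 108 CPM, -0.51 ± 0.10, adjusted p = 0.00989) and Epcam (243 to 305 against 191 to 254 CPM, -0.32 ± 0.07, adjusted p = 0.0366) were lower with overlapping ranges. Epcam lost the call without any 1 of 8 of the gastruloids, with an adjusted p of 0.0613 without mesodermal 2 and 0.0947 without neural 6. With Cldn6 they made 3 of 12 cadherin, junction and EMT genes tested (median -0.38). At an unadjusted p under 0.05 in edgeR's test were 8 of the 12, 1 of them with a positive value. The negative ones were not only epithelial genes, as they included the fibronectin gene Fn1 and the EMT regulator Snai1. Of 12 endoderm markers 6 were tested and 2 (Trh, Krt8) were lower. Krt18 (-0.63, adjusted p = 0.0809) and Cldn4, with a value of opposite sign (0.95, adjusted p = 0.396), had an unadjusted p under 0.05 only. All 12 summed to 108 to 300 CPM in mesodermal and 72.7 to 114 in neural gastruloids. Sox17, a defining endoderm factor, had a mean of 2.31 CPM, and Foxa2, another, ranged from 6.12 to 35.1 CPM. Of the 3 anterior streak markers tested 0 passed in edgeR's test and 1 had an unadjusted p under 0.05, with sums over all 6 of 21.4 to 151 and 26.4 to 61.8 CPM. The part of endoderm-like cells under the name Primitive Streak in these differences was not tested.

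The streak genes themselves were not called apart from Fgf8. T had 656 to 962 against 542 to 839 CPM (-0.20 ± 0.08, adjusted p = 0.4657), Mixl1 16.4 to 56.4 against 6.36 to 78.8 (0.10 ± 0.30), and Tbx6 14.2 to 49.1 against 8.37 to 22.4 (-0.54 ± 0.24). Of 16 streak and mesoderm factors 8 were tested and 0 passed in edgeR's test, with 4 at an unadjusted p under 0.05, all with negative values (median -0.27). Nodal, the ligand that starts the streak, had 17.4 to 60.9 against 4.41 to 23.7 CPM. It missed the threshold (-1.13 ± 0.27, adjusted p = 0.0561) and passed under 7 of the other settings. Mesp1 missed it too (-1.59 ± 0.39, adjusted p = 0.0675) and passed under 6. Fgf8 was lower (436 to 560 against 322 to 474 CPM, -0.34 ± 0.07, adjusted p = 0.0318) and lost the call without any 1 of 6 of the gastruloids.

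No gene passed in edgeR's test in the lists of Hox genes, Wnt ligands, Wnt targets, the Nodal, BMP, retinoic acid and Notch pathways, pluripotency, Eph receptors, matrix, cell cycle, glycolysis, sterol synthesis, ribosome biogenesis, stress genes, p53 targets or imprinted genes. Of these, the sterol and fatty acid synthesis genes had negative values in 23 of 24 (median -0.11), 4 of them at an unadjusted p under 0.05. Fgf8 was the 1 of 13 FGF pathway genes and Nkx1-2 and Sox2 the 2 of 12 caudal identity genes to pass.

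**Figure D4:**
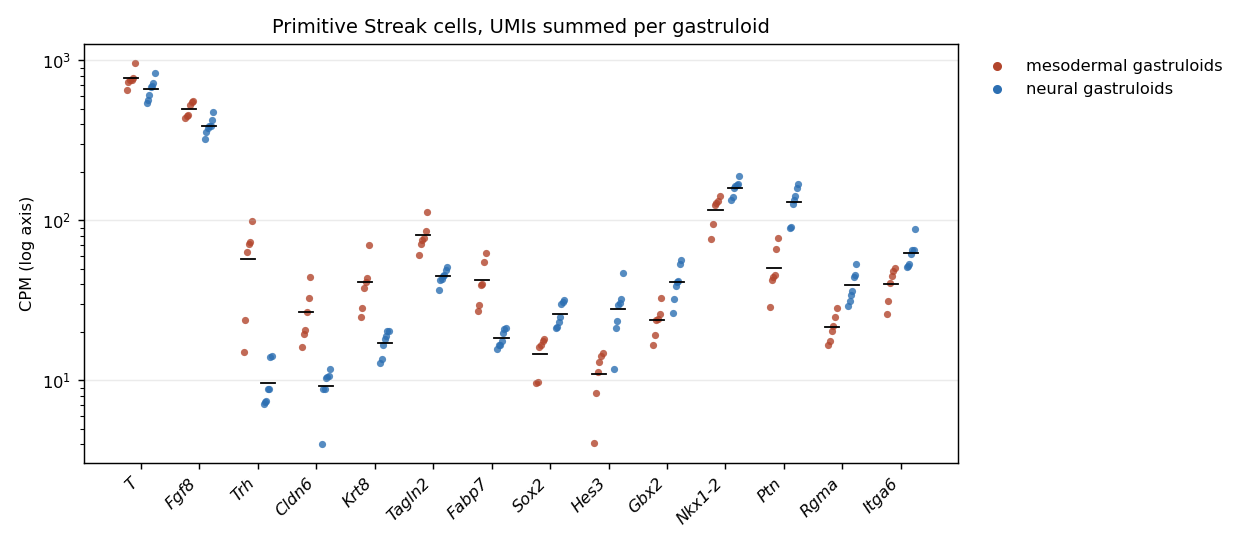
CPM (log axis) in Primitive Streak cells summed per gastruloid, 1 point per gastruloid (6 mesodermal, 7 neural), with black lines at the class means. Trh, Cldn6, Krt8, Tagln2, Fabp7, Sox2, Ptn, Rgma and Itga6 separate the classes fully, whereas T overlaps and did not pass.

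Both progenitor names come from the same gastruloids, so their values are given side by side. The 15 genes called in both included Ptn (0.90 in Caudal Epiblast, 1.20 in Primitive Streak), Gbx2 (0.69, 0.81), Rgma (0.62, 0.79), Cdh13, a cell adhesion molecule (1.03, 1.05), and Rtl8b (0.81, 0.60) as higher in neural gastruloids. Fabp7 (-1.98, -1.14), Cd36, a fatty acid transporter (-1.44, -0.95), Krt8 (-1.02, -1.22), S100a10 (-1.37, -0.57) and Atl2 (-0.59, -0.56) were lower. The class differences had the same sign in both names for each of these 10. Cdh13 lost the call without any 1 of 4 of the gastruloids in Caudal Epiblast and 6 in Primitive Streak. In Caudal Epiblast, Krt8 and Atl2 each lost it without any 1 of 3, and Gbx2 and Cd36 without 1. In Primitive Streak, S100a10 lost it without any 1 of 9, Cd36 of 8 and Gbx2 of 2. Ptn, Rgma, Rtl8b and Fabp7 kept it in both names without any 1 gastruloid.

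The difference between the names was tested with gastruloid as a block over 6 mesodermal and 6 neural gastruloids. Of 10497 genes 29 (0.276%) passed. Vim (-0.65 in Caudal Epiblast, 0.16 in Primitive Streak, difference 0.68, adjusted p = 0.00624), Rspo3 (-0.76, -0.17, difference 0.64, adjusted p = 0.0296) and Aldoa (-0.49, -0.07, difference 0.39, adjusted p = 0.0383) differed more between classes in Caudal Epiblast. Dnmt3b was higher in neural Caudal Epiblast (0.43) and had -0.15 in Primitive Streak (difference -0.63, adjusted p = 0.0172). Trh differed in Primitive Streak (-2.47) and not in Caudal Epiblast (-0.10), with a difference of -2.17 (adjusted p = 0.0172).

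For T (difference 0.36, adjusted p = 0.167), Tbx6 (1.03, adjusted p = 0.393), Dll1 (1.18, adjusted p = 0.0952) and Sox2 (0.66, adjusted p = 0.261) the class effect was not shown to differ between the names. Among the p53 targets Ccng1 (-0.57, adjusted p = 0.0270), Phlda3 (-0.79, adjusted p = 0.0478) and Trp53inp1 (-0.95, adjusted p = 0.0270) passed the test of the difference. Ccng1 and Phlda3 were singled out after their values were seen, and neither passed within either name. All 10 targets had positive values in Caudal Epiblast and 8 of 10 had negative values in Primitive Streak.

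Early Posterior PSM cells, the mesodermal cells both classes make, were tested over 1021 cells of 6 mesodermal and 150 cells of 4 neural gastruloids. These 4 were neural 1, 3, 4 and 7. In the embryo mapping 80.7% of mesodermal and 65.4% of neural Early Posterior PSM cells fell on intermediate mesoderm. Of 10659 genes 0 (0%) passed in edgeR's test, 1204 had an unadjusted p under 0.05, and the smallest adjusted p was 0.0547. The ranges did not overlap for 3.03% of the genes. DESeq2 called 41. Without mesodermal 5 the count was 179, and without neural 3 it was 30. Without mesodermal 1, mesodermal 3 or neural 7 it was 3, 7 and 4. With 4 neural gastruloids, each holding 22 to 63 of these cells, a difference of this kind is not settled by the count.

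Day 3 gastruloids, whose titles name the same MULTI-seq experiment, carry another experiment number in the authors' cell table. These 11 mesodermal and 13 neural gastruloids, from another pool, gave a separate set for Primitive Streak. There 129 of 10443 genes (1.24%) passed, 34 higher (0.326%) and 95 lower (0.91%) in neural gastruloids, and the ranges did not overlap for 0.00958%. Of the 35 genes called at day 3.5, 32 had the same sign at day 3, 14 of 15 higher and 18 of 20 lower ones. Over all genes tested at day 3, 50.2% had negative values. Of 122 genes called at day 3 and tested at day 3.5, 102 had the same sign. At day 3, 6 of the 35 were called, which is 17.1% of the 35 and 4.65% of the 129. These were Ptn (0.40 at day 3), Fgf8 (-0.22), Fabp7 (-0.39), Cd36, S100a10 and S100a11. The median absolute log2 fold change of the 35 was 0.72 at day 3.5, where they were chosen, and 0.12 at day 3.

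Some genes were called in Primitive Streak at day 3 and not at day 3.5. Tbx6 (-0.58, adjusted p = 0.0483), Dll1 (-0.49, adjusted p = 0.0217) and Mesp1 (-0.66, adjusted p = 0.0308) were lower in neural gastruloids there, against -0.54, -0.51 and -1.59 at day 3.5 with adjusted p of 0.521, 0.365 and 0.0675, and T had -0.03 (adjusted p = 0.791). The class effect was not shown to differ between the days for Tbx6 (difference 0.09, adjusted p = 0.982) or Mesp1 (-0.92, adjusted p = 0.714). Sox2 had 0.03 at day 3 against 0.88 at day 3.5, a difference that was not shown (0.86, adjusted p = 0.0991).

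The difference between the days was tested over 10919 genes, and 11 (0.101%) passed, 7 of them more negative at day 3.5 (0.0641%). Trh (difference -2.32, adjusted p = 0.0192), Tagln2 (-0.76, adjusted p = 0.000679), Cdh1 (-0.48, adjusted p = 0.0222) and Epcam (-0.35, adjusted p = 0.0163) were lower in neural gastruloids at day 3.5 (-2.47, -0.81, -0.51 and -0.32) and had -0.12, -0.03, -0.01 and 0.03 at day 3. Rtl8b, a retrotransposon-derived gene, had 0.60 at day 3.5 and 0.08 at day 3 (difference 0.51, adjusted p = 0.0222). Day, pool and experiment number cannot be told apart here, although each class contrast lies within a pool. Day 4 had 2 neural gastruloids, and no day 3 gastruloid held 20 Caudal Epiblast cells, so those comparisons were not made.

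**Figure D5:**
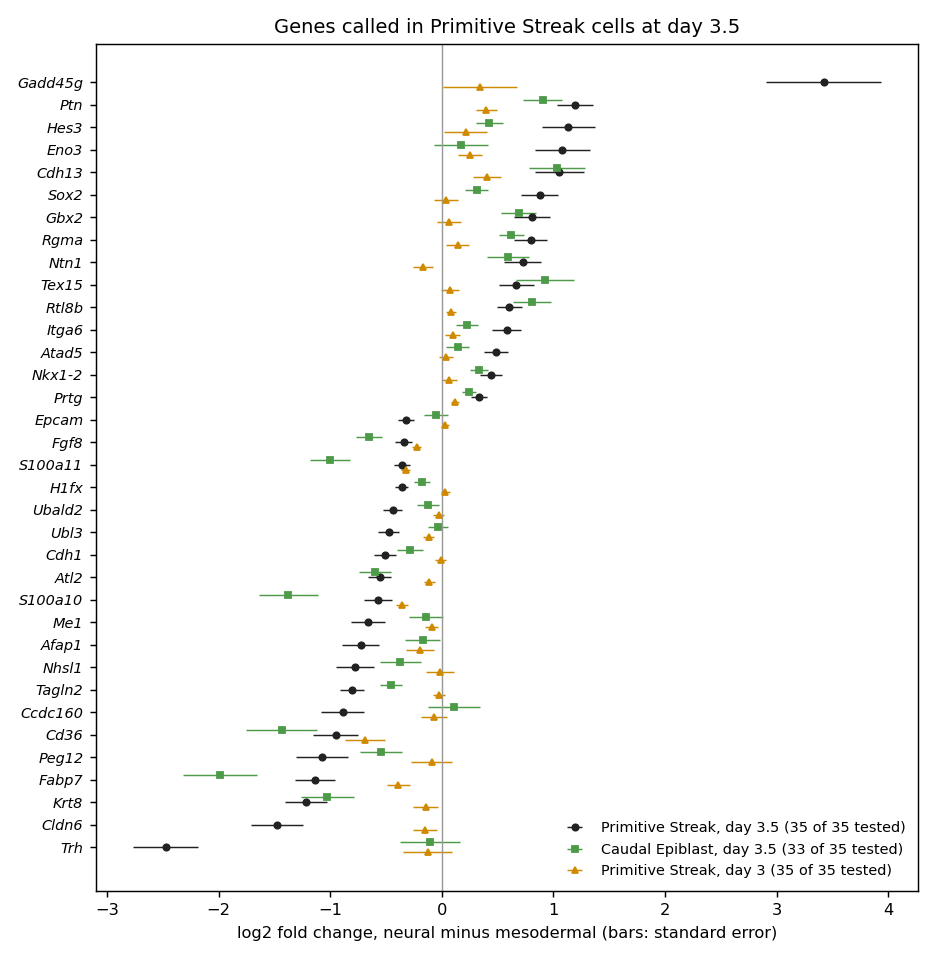
Log2 fold change, neural minus mesodermal (x axis; bars are standard errors), for the 35 genes called in Primitive Streak at day 3.5 (circles), with their values in Caudal Epiblast at day 3.5 (squares, 33 tested) and in Primitive Streak at day 3 (triangles). Ptn lies above 0 in all 3, and Trh lies far below 0 in day 3.5 Primitive Streak alone.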

How the data were processed

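Cells, names, classes and mapped types came from the authors' deposited cell table. The authors deposited raw UMI counts of 32285 genes in each droplet. Cell Ranger 6.0.0, Seurat and build mm10 are listed in the submitters' processing notes, which name neither the annotation nor the rule behind the class. No doublet caller was run.

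Counts of lanes A to D were summed per gastruloid and cell name and tested with edgeR 4.0.16 in R 4.3.3 (filterByExpr, TMM, quasi-likelihood test, Benjamini-Hochberg over all genes tested, threshold 0.05), after a check on simulated data. CPM are counts per 1000000 counts of such a sum, where the sum runs over the genes that passed the filter and is multiplied by its TMM factor. The levels compared between Early Posterior PSM and Caudal Neurectoderm were not scaled in this way. Each p within a day measures the spread between gastruloids of 1 culture experiment. The test between days spans different experiment numbers of the authors' cell table. Alternatives covered size factors, DESeq2 1.42.0, filters, cell minimums, covariates, lanes and each gastruloid. Adding 1 CPM and thinning served descriptions only.

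Named genes were, per name and direction, the 10 largest changes among those that passed with 20 or more CPM, up to 10 genes called in both names, called members of 22 lists, and a fixed set including T, Sox2 and Tbx6. The part of the data, genes and lists were chosen with earlier results of these data known. Some results are not reported here.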

Additional observations from a re-analysis of the deposited data

Results flagged for a closer look

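Of 86 groups of gastruloids examined for a value that stands apart from the rest of its group, 7 held one, and chance alone marks about 1 in 20 groups. Mesodermal 6 had 21.5% of cells under neural names, against 0.498% to 5.28% in the other mesodermal gastruloids. In Caudal Epiblast, neural 6 had 261 CPM of T, below the 363 to 436 of the other neural gastruloids. Neural 5 had 3.31 CPM of Nodal there, against at most 1.2002. Mesodermal 4 had 9.61 CPM of Lefty2, a Nodal antagonist, against 0 to 1.94, and neural 1 had 7.80 CPM of Utf1, an epiblast gene, against 1.35 to 3.88. Mesodermal 3 had 17.1 CPM of Aldh1a2, the enzyme that makes retinoic acid, against 4.80 to 9.01. In Primitive Streak, mesodermal 2 had 11.1 CPM of Cyp26a1, the enzyme that clears retinoic acid, against 0 to 1.08.

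The class effect of some named genes differed by a test of the difference itself. Between Primitive Streak and Caudal Epiblast, Sprr2a3 differed by 1.51 on the log2 scale (adjusted p = 0.00655), Dennd2c by 1.00 (0.0340), Cited1 by 1.25 (0.0260), Trp53inp1 by -0.95 (0.0270), Pim2 by -1.51 (0.0478) and Trh by -2.17 (0.0172). Sprr2a3, Dennd2c and Cited1 were lower in neural Caudal Epiblast (-1.43, -1.27 and -1.23) and had 0.05, -0.37 and -0.17 in Primitive Streak. Between day 3.5 and day 3 in Primitive Streak, Trh differed by -2.32 (adjusted p = 0.0192), Tagln2 by -0.76 (0.000679) and Rtl8b by 0.51 (0.0222).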

How the results depend on the processing

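Between neural and mesodermal gastruloids no paired analysis was possible because the letters in the labels name lanes, over which each gastruloid was summed. The labels themselves read sample A to D, and lane is the reading used here. With any 1 letter left out, all 10 neural and 6 mesodermal gastruloids still held cells, so no letter stands for 1 gastruloid. The comparison of cell names within gastruloids was blocked by gastruloid. In Caudal Epiblast each of the 50 named genes that passed kept its sign under all settings, 10 kept the call under all and 30 without any 1 gastruloid. The 10 were T, Fgf8, Hoxd9, Fabp7, Vim, Aldoa, Pgk1, Psd3, Arl4d and Dennd2c. In Primitive Streak 23 of 24 kept the sign, 0 kept the call under all settings and 11 without any 1 gastruloid. Atad5 turned to -0.16 there with cells of the matching embryo-mapped name.

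The 230 genes called in Caudal Epiblast became 389 with no filter on low counts, 60 with the percent of neural cells in place of the class, 65 with at least 30 cells, 51 with 20 cells drawn per gastruloid, 79 without lane A and 43 without lane C. Leaving out 1 gastruloid gave 80 (mesodermal 2) to 303 (mesodermal 5), with 148 without mesodermal 3 and 152 without neural 6. The 35 of Primitive Streak became 150, 128, 6, 8, 5 and 4 under the same 6 settings, 2 with the matching mapped name (2 gastruloids per class), 11 without lane B and 4 without lane D, and 13 to 50 without 1 gastruloid. The share of genes higher in neural gastruloids was 30.9% in Caudal Epiblast and 18.6% without lane C. In Early Posterior PSM the 0 became 247 with no filter, 41 with DESeq2, 222 with at least 10 cells, 61 with at least 30, 7 with 20 drawn, 10 with the mapped name (intermediate mesoderm), 46, 31, 13 and 21 without lanes A, B, C and D, and 0 to 179 without 1 gastruloid. With no filter, the difference between names had 111 genes in place of 29 and that between days 25 in place of 11. Settings that leave out lanes or raise the minimum also drop gastruloids under the cell minimum, so fewer cells and gastruloids enter. RLE size factors gave 225, 34 and 0.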
